A study of Mus musculus with 30 samples.

Results

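The hippocampus of mice fed a high dose of methylmercury (MeHg) was compared with that of mice fed control feed, across all measured genes. The libraries were chosen by the treatment labels HD and Ctr, 5 of each, which is 10 of the 30 libraries of the series. A gene was a member of the comparison when its mean was at least 10 normalized counts over these 10 libraries, and 14407 of the 21412 genes in the table met this. The mice were male BALB/c mice that arrived at 2 to 3 weeks of age and were housed singly on AIN-93G-based feed, and after 5 days of acclimatisation they ate the feed of their group for 11 weeks. HD feed held 5 mg MeHg per kg, bound to cysteine, and Ctr feed held the cysteine solution without MeHg. LD mice ate feed with 0.28 mg MeHg per kg, and Se_Ctr, Se_LD and Se_HD mice were given selenium with the same steps of MeHg. From the 6 mice assigned to each group, 5 hippocampi per group were sequenced, 1 mouse per library, and mice are named here by group and library number.

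MeHg is an organic form of mercury that accumulates in fish, crosses the blood-brain barrier and binds strongly to thiol and selenol groups of proteins and small molecules. Microglia, the resident macrophages of the brain, and astrocytes, which supply neurons and buffer ions and transmitters, change their transcripts when brain tissue is injured or inflamed. In the hippocampus both cell types surround excitatory pyramidal and granule neurons and a smaller population of inhibitory interneurons that release GABA.

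Ctr libraries held 5768208 to 9121958 reads on genes (median 7119788) and HD libraries 7133831 to 10783739 (median 10159514). Hippocampal neuron markers were abundant in both groups, with group means of 825 (Ctr) and 831 (HD) normalized counts for Prox1, of granule neurons, and 35224 and 33517 for Camk2a, of pyramidal neurons. A normalized count is a read count divided by the library's size factor. Some libraries stood apart. HD 21 was the most extreme HD mouse in most changes described here, Ctr 1 held pituitary hormone transcripts (Gh at 3697, Pomc at 1966 and Prl at 647 normalized counts), and Ctr 13 was the shallowest library, high in ribosomal and small nuclear RNA. Counts and list medians without HD 21 are therefore given beside many of the lists, and counts without all 3 libraries for the main lists. The tissue was measured in bulk, so more cells of a type and more RNA per cell cannot be told apart.

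The question put to these libraries was which transcripts differed between HD and Ctr mice. After adjustment over all genes, 17 genes differed, 16 higher and 1 lower in HD mice, which is 0.118% of those tested (limma, Benjamini-Hochberg adjusted p under 0.05). This count depended on single mice and on the fit. It was 77 without HD 27, 53 without HD 15, 11 without HD 21, and 0 without Ctr 25 or HD 9, without the limma trend, or with Ctr and HD alone in the fit, settings in which 1004, 1291, 1241 and 1164 genes had an unadjusted p under 0.05. By the rule of the study, the F test over Ctr, LD and HD and the contrast both had to reach an unadjusted p under 0.05. The study applied it in other software to all its transcripts. Here both tests were moderated by limma and run on the members only, so the counts are not those of the study. In this way 782 genes were called (5.43%), 488 higher (3.39%) and 294 lower (2.04%). Unless stated otherwise, a called gene below is one called by this rule, and rose or fell is used of called genes. The median log2 fold change was 0.74 among the genes called higher and −0.44 among those called lower, against −0.00 over all genes tested. A rise of at least 1 on the log2 scale was seen in 137 genes, and a fall of at least 1 in 16. The HD and Ctr mice did not overlap in 153 genes higher in HD (1.06%) and 124 genes lower (0.861%), of which 127 and 88 were also called. Without HD 21, 280 of the 488 and 161 of the 294 genes were still called, and in all of the 10 fits that left out 1 mouse 224 and 100 were. The members include 205 genes that reached the mean of 10 only through HD mice, of which 49 were called higher, and 129 that reached it only through Ctr mice, of which 13 were called lower.

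The 16 genes that rose after adjustment included transcripts of phagocytes, of the complement system and of astrocytes. Gfap, the intermediate filament of astrocytes (chromosome 11, 102748650 to 102762226, minus strand, NCBIM37), had 1722, 1930, 1673, 1988 and 1430 normalized counts in Ctr mice 1, 7, 13, 19 and 25. It had 7281, 12446, 5143, 32820 and 4080 in HD mice 3, 9, 15, 21 and 27, and other values by mouse are given in the same order. Every HD mouse was above every Ctr mouse, by a log2 fold change of 2.39 (SE 0.37, adjusted p = 0.0125) with HD 21 and 1.93 without it. C4b, the complement component that is cleaved onto activating surfaces (chromosome 17, 34865325 to 34880827, minus strand), had 233, 249, 296, 265 and 211 normalized counts in Ctr mice and 772, 1102, 492, 1573 and 519 in HD mice. The groups did not overlap, and C4b rose 3.23-fold (log2 fold change 1.69, SE 0.24, adjusted p = 0.0125). Reads of C4b and its near-identical neighbour C4a may have been split between them, and C4a rose by 0.83 on the log2 scale (SE 0.21, adjusted p = 0.143).

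**Figure D1:**
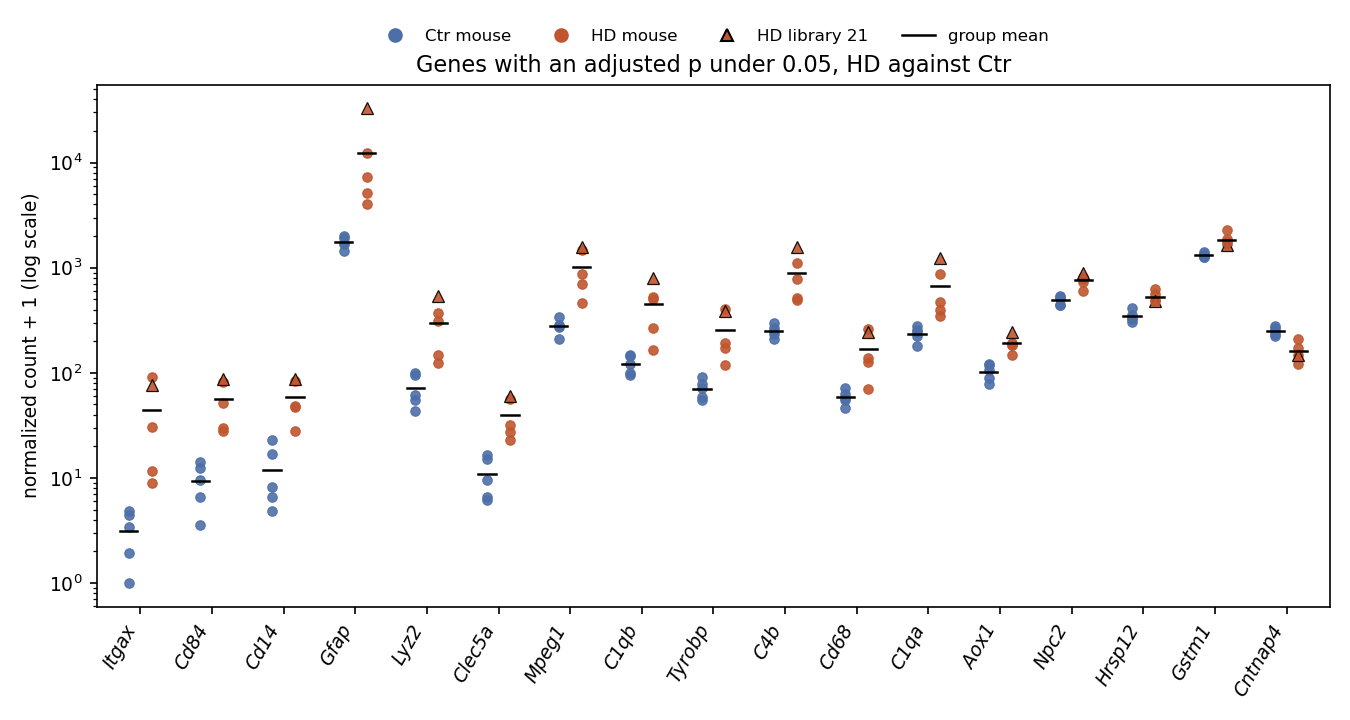
Normalized counts plus 1 (log axis) of the 17 genes that passed adjustment, 1 point per mouse with the group mean as a bar and HD 21 as a triangle. All HD mice lie above all Ctr mice in 15 genes and below them in Cntnap4, while Cd68 of 1 HD mouse (69.8) lies below the highest Ctr mouse (70.9).

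Several of the other genes are expressed by macrophages. Mpeg1, a pore-forming protein of macrophage phagosomes (chromosome 19, 12535269 to 12539774), had 284, 210, 340, 277 and 272 normalized counts in Ctr mice and 862, 1480, 706, 1585 and 457 in HD mice (log2 fold change 1.75, SE 0.26, adjusted p = 0.0125). Tyrobp, the signalling adaptor of Trem2 and other receptors (chromosome 7, 31198807 to 31202596), had 58.0, 89.5, 76.6, 70.9 and 54.1 in Ctr mice and 173, 402, 190, 387 and 118 in HD mice (1.71, SE 0.27, adjusted p = 0.0143). In both genes HD 9 and HD 21 were the highest mice and HD 27 the lowest HD mouse, still above all Ctr mice. Lyz2, the lysozyme of macrophages (chromosome 10, 116714390 to 116719377), had 42.3, 60.1, 95.3, 99.2 and 54.1 normalized counts in Ctr mice and 309, 372, 124, 538 and 146 in HD mice (1.93, SE 0.33, adjusted p = 0.0213). It has a close copy in Lyz1, with which it may share reads.

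Low-abundance receptors showed the largest ratios. Cd14, the co-receptor for bacterial lipopolysaccharide (chromosome 18, 36884728 to 36886390), had 7.24, 3.84, 22.1, 16.1 and 5.63 normalized counts in Ctr mice and 45.8, 83.3, 47.1, 86.5 and 27.0 in HD mice (log2 fold change 2.42, SE 0.39, adjusted p = 0.0167). Cd84, an adhesion receptor of leukocytes (chromosome 1, 173769828 to 173820849), had 13.3, 2.56, 8.51, 11.3 and 5.63 in Ctr mice and 50.6, 81.7, 26.9, 85.7 and 28.8 in HD mice (2.59, SE 0.40, adjusted p = 0.0125). Itgax, the integrin alpha chain of dendritic cells and activated microglia (chromosome 7, 135273061 to 135294171), lay at 2.41, 3.84, 3.40, 0.945 and 0 in Ctr mice and at 29.7, 90.8, 10.8, 75.9 and 7.85 in HD mice (3.46, SE 0.62, adjusted p = 0.0302). None of these genes overlapped between the groups, and the smallest HD value of Itgax, 7.85, rested on few reads. Clec5a, a lectin that couples to Tyrobp, rose by 1.89 (SE 0.34, adjusted p = 0.0287). Cd84, Clec5a and Itgax had a Ctr mean under 10 normalized counts and entered the test through the HD mice.

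The C1q chains and Cd68 completed the phagocyte genes. C1qa (136451832 to 136454718) and C1qb (136436044 to 136442102), neighbouring genes on chromosome 4 for chains of the first complement component, rose by 1.33 (SE 0.25) and 1.71 (SE 0.32), each with an adjusted p of 0.0437. C1qb had 147, 143, 95.3, 119 and 98.0 normalized counts in Ctr mice and 268, 522, 498, 790 and 165 in HD mice, without overlap. Cd68, a lysosomal membrane protein of macrophages, rose by 1.38 (SE 0.27, adjusted p = 0.0461) and was the only one of these 17 genes in which the groups overlapped. Without HD 21, C1qb, Cd68, Clec5a, Itgax, Aox1 and Cntnap4 had adjusted p-values between 0.0816 and 0.104, and the log2 fold changes of all 17 kept their direction.

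Some of the 17 genes changed by smaller, even steps. Npc2, which carries cholesterol out of lysosomes (chromosome 12, 86095510 to 86114062), had 540, 527, 442, 499 and 437 normalized counts in Ctr mice and 775, 807, 732, 885 and 597 in HD mice (log2 fold change 0.63, SE 0.10, adjusted p = 0.0208). Hrsp12, an enzyme that removes reactive imines, had 413, 354, 323, 328 and 302 in Ctr mice and 556, 629, 494, 481 and 477 in HD mice (0.61, SE 0.10, adjusted p = 0.0213). Gstm1, a glutathione transferase with close relatives in its gene cluster, rose 1.40-fold (0.48, SE 0.09, adjusted p = 0.0439), and Aox1, an aldehyde oxidase, rose 1.85-fold (0.89, SE 0.16, adjusted p = 0.0287). HD 21 was not the highest HD mouse for Hrsp12 (481) or Gstm1 (1645). The single gene that fell with an adjusted p under 0.05 was Cntnap4, a neurexin-family protein of interneuron synapses (chromosome 8, 115093943 to 115406617), with 233, 225, 276, 249 and 266 normalized counts in Ctr mice and 147, 121, 208, 148 and 173 in HD mice (−0.66, SE 0.13, adjusted p = 0.0437).

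Gene lists of cell types and pathways were then described by the number of members called and by their median log2 fold change, beside 3.39% of all genes called higher, 2.04% called lower and a median of −0.00. Without HD 21, 331 of 14346 genes tested were called higher and 202 lower. A list score of a mouse is the mean over the list of the log2 difference from the Ctr mean. Of 20 genes of homeostatic microglia, all with a Ctr mean of at least 10, 14 rose and none fell (median 0.68, and 0.58 with 13 called without HD 21). Csf1r, the receptor for the growth factor on which microglia depend, had 700, 744, 721, 698 and 638 normalized counts in Ctr mice and 1162, 1511, 849, 1689 and 873 in HD mice, without overlap (log2 fold change 0.74, SE 0.15, adjusted p = 0.0646). The transcription factor Irf8 rose by 1.13 and the fractalkine receptor Cx3cr1 by 0.68. Tmem119 and P2ry12, surface proteins that mark resident microglia, rose by 0.47 and 0.36, the latter in 3 of the 10 fits that left out 1 mouse. Siglech (0.46, SE 0.22) and Sall1 (0.19, SE 0.12) were not called. The score of this list was 0.55, 1.10, 0.23, 1.22 and 0.20 in HD mice and between −0.15 and 0.08 in Ctr mice.

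Of 23 genes of activated and phagocytic microglia 17 rose and none fell (median 1.01), and among the 16 with a Ctr mean of at least 10 it was 11 (median 0.82). Trem2, the lipid receptor that signals through Tyrobp, rose by 1.18 (SE 0.28), and Cd63, a tetraspanin of late endosomes, by 1.17 (SE 0.26) without overlap. Spp1, osteopontin, rose by 2.39 (SE 0.79) with HD 21 and by 1.35 without it. Cst7 and Clec7a, a protease inhibitor and a glucan receptor, rose from Ctr means of 1.88 and 5.22 normalized counts to HD means of 26.8 and 46.0, at which the depth of single libraries limits precision. Without HD 21, 13 of these genes were called.

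Of 21 Fc receptors and innate sensors, 15 rose and none fell (median 0.90), and without HD 21 it was 13 (median 0.68). Among the 19 with a Ctr mean of at least 10 it was 13 (median 0.85). Fcer1g, the common signalling chain of Fc receptors, had 13.3, 15.3, 22.1, 29.3 and 14.6 normalized counts in Ctr mice and 49.8, 82.5, 48.4, 137 and 31.4 in HD mice (1.70, SE 0.34). Tlr2, a receptor for bacterial lipoproteins, rose by 1.86 (SE 0.39) and Fcgr3 by 0.92 (SE 0.26), neither with overlap. Tlr4 (0.46, SE 0.36) and Tlr6 (0.46, SE 0.26) were not called. Of 16 complement genes 9 rose and none fell (median 0.84, and 0.66 without HD 21), and of the 14 with a Ctr mean of at least 10 it was 8. The genes that rose included C1qc (1.45, SE 0.30), C3ar1, the C3a receptor (1.77, SE 0.44), and Clu, an abundant extracellular chaperone (0.59, SE 0.12). C3 had 4.83, 14.1, 6.81, 11.3 and 12.4 normalized counts in Ctr mice and 50.6, 29.2, 14.8, 113 and 23.6 in HD mice (1.85, SE 0.44), and with a Ctr mean of 9.89 it entered the test through the HD mice. Cd55, an inhibitor of complement activation, was not called (0.23, SE 0.25).

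Antigen presentation, interferon and cytokine genes changed in fewer members. Of 9 antigen presentation genes, B2m, the light chain of class I molecules (0.71, SE 0.22), and Tapbp, a peptide loading factor (0.36, SE 0.14), rose. Without HD 21, B2m was at 0.46, Tapbp was not called, and the list median of 0.40 was 0.27. Of 18 interferon response genes only Bst2 (1.00, SE 0.35) and Ifitm3 (1.07, SE 0.40) were called, and the list median of 0.46 was 0.05 without HD 21. In that fit Bst2 was at 0.79 and not called, and Ifitm3 was at 0.58. The interferon score was 2.52 in HD 21 and 0.83 in HD 9, while in HD 15 (−0.17) and HD 27 (−0.20) it lay below all Ctr mice. Cxcl10, a chemokine induced by interferon, was at 103 normalized counts in HD 21, 23.3 in HD 9 and 0 to 3.21 in the other HD mice, and was not called. Of 13 cytokines and chemokines 5 rose, and of the 9 with a Ctr mean of at least 10 it was 2. Without HD 21, 2 of the 13 were called, and the median of 0.50 was 0.13. Tgfb1 rose without overlap (0.90, SE 0.24), and Ccl3, which drew on 0 to 3.84 normalized counts in Ctr mice, had 8.84, 50.8, 14.8, 23.7 and 2.62 in HD mice. Tnf was at 0 in all Ctr mice and at a mean of 2.46 in HD mice, too low to be tested.

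**Figure D2:**
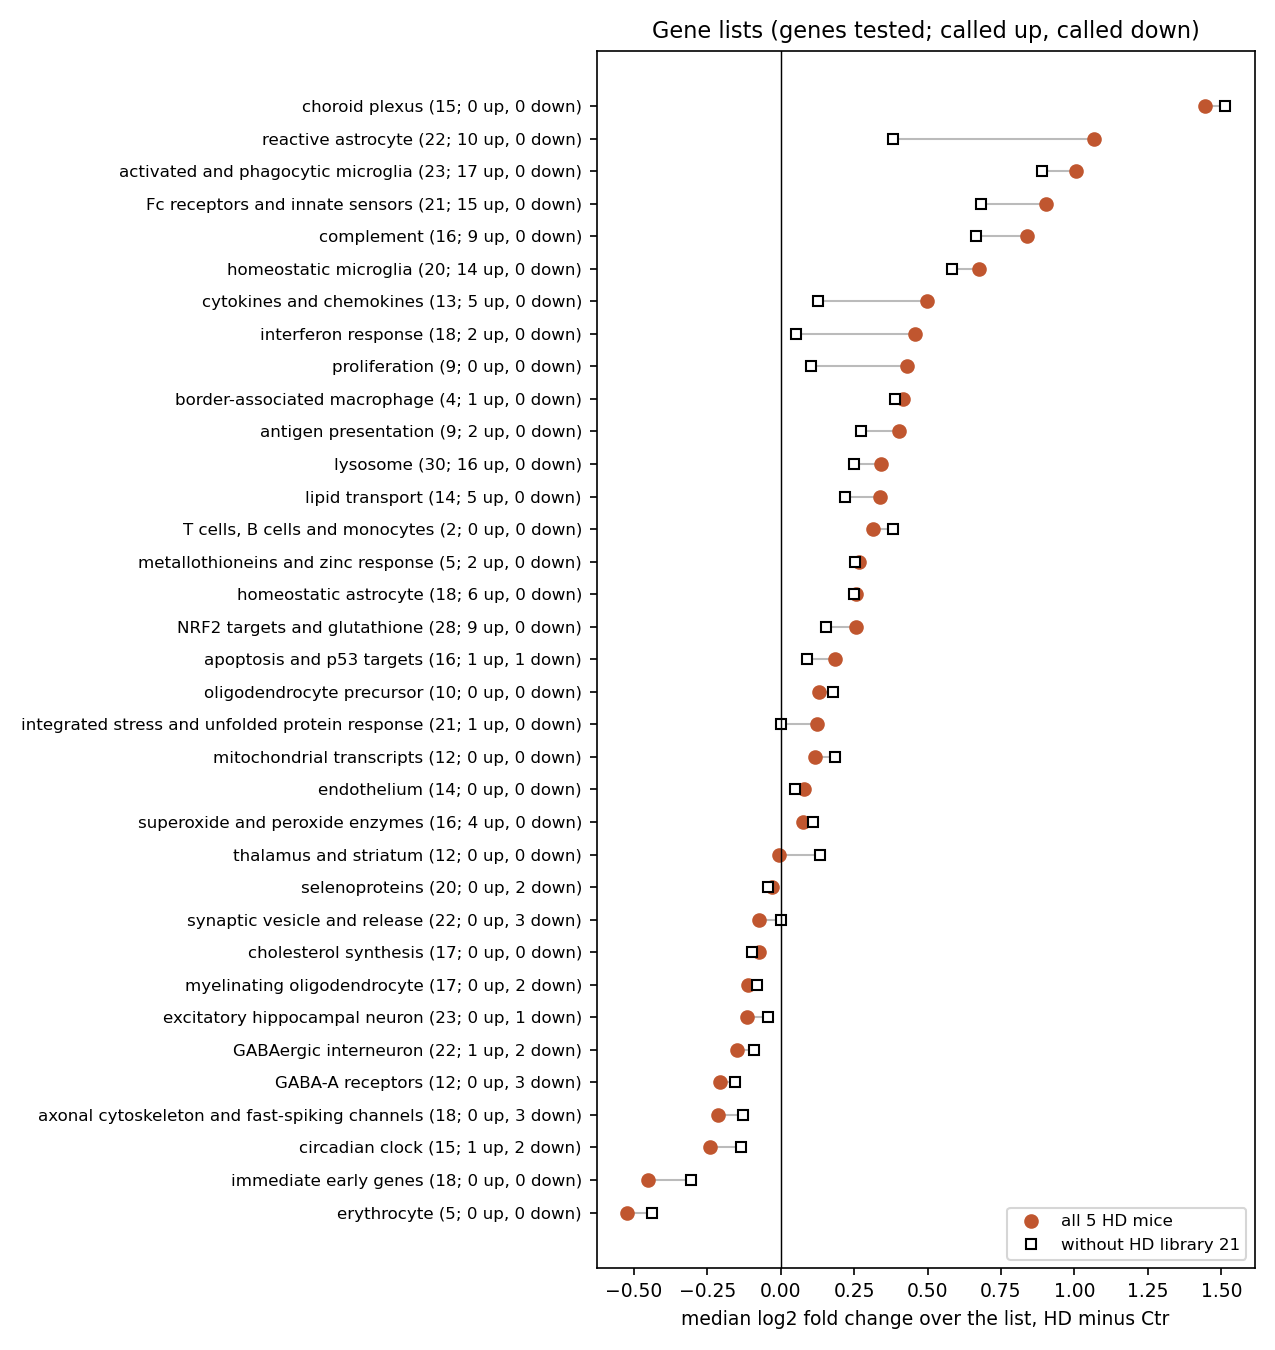
Median log2 fold change of HD minus Ctr for each gene list, with all 5 HD mice (filled) and without HD 21 (open squares), the number of genes tested and the numbers called in brackets. Microglial, complement and astrocyte lists lie to the right of 0, the reactive astrocyte and interferon medians move most when HD 21 is left out, and the choroid plexus median is the highest (1.44) with no gene called.

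Reactive astrocyte genes rose most in 1 mouse. Of 22 genes, 10 rose and none fell (median 1.07), and without HD 21 it was 6 (median 0.38). Of the 19 with a Ctr mean of at least 10, 8 rose (median 0.98). The score was 0.71, 0.91, 0.24, 2.99 and 0.18 in HD mice against −0.16 to 0.28 in Ctr mice, so that HD 15 and HD 27 were within the Ctr range. Serpina3n, a secreted protease inhibitor with close relatives in its cluster, had 548, 798, 740, 704 and 774 normalized counts in Ctr mice and 1394, 1136, 1254, 4745 and 1042 in HD mice (1.16, SE 0.30). Osmr, the oncostatin M receptor, had 45.9, 35.8, 47.6, 36.8 and 50.7 in Ctr mice and 108, 166, 65.9, 388 and 63.7 in HD mice (1.51, SE 0.37). Both were without overlap and were called without HD 21, at 0.76 and 1.10. Vim, vimentin, rose by 1.09 (SE 0.51) and S100a10 by 0.97 (SE 0.43), and without HD 21 they were at 0.38 and 0.39 and were not called. Of 18 homeostatic astrocyte genes 6 rose (median 0.26), and 3 did without HD 21 (median 0.25). Among the 6 was the transcription factor Sox9 (0.42, SE 0.15, without overlap). The water channel Aqp4 had 2704, 3024, 1529, 9364 and 1706 normalized counts in HD mice and between 1248 and 1723 in Ctr mice. Of 9 proliferation genes none was called (median 0.43, and 0.10 without HD 21), including Mki67, a marker of dividing cells (0.79, SE 0.43).

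The promoter of Gfap is shown because Gfap rose 5.24-fold and because STAT factors are known to act on this gene. The RefSeq window (GRCm38.p6, chr11:102897171-102897450, minus strand, 250 bases before to 30 after the start) is printed with the letters TTCNNNGAA, a STAT motif, in capitals.
Gfap: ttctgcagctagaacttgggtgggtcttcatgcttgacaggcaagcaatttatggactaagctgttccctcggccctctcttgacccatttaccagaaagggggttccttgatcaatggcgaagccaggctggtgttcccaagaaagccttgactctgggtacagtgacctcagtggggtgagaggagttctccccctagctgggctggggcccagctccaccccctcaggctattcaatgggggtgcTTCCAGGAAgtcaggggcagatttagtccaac
The match begins 2 bases before the start. On either strand, 8.3% of 32851 promoter windows of 300 bases hold these letters. Promoter windows were at hand for 11 of the 17 genes, and none of them held GAGGAAGT, a motif of the ETS factor PU.1, against 3.2% of all windows. These matches are descriptions of letters and not of binding.

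Lysosomal and lipid genes rose in part. Of 30 lysosomal genes 16 rose and none fell (median 0.34, and 0.25 with 11 called without HD 21). Ctsd, the main aspartic protease of lysosomes, had 2729, 3164, 2508, 2713 and 2120 normalized counts in Ctr mice and 4494, 7364, 3537, 8699 and 3375 in HD mice, without overlap (0.96, SE 0.21). Ctss and Ctsh, cysteine proteases, rose by 1.09 (SE 0.22) and 1.11 (SE 0.23), and Lamp2 by 0.50 (SE 0.12), all without overlap. Grn, progranulin, rose by 0.68 (SE 0.20). Of 14 lipid transport genes 5 rose (median 0.34), and without HD 21 it was 2 that were called at a median of 0.22. Apoe, the main lipoprotein of the brain, had 11221, 11451, 10076, 10000 and 8593 normalized counts in Ctr mice and 14966, 17161, 17335, 10819 and 12338 in HD mice (0.48, SE 0.14). Here HD 21 was the lowest HD mouse and lay within the Ctr range.

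Genes of the NRF2 response and of metal binding rose in part. Of 28 NRF2 targets and glutathione genes 9 rose and none fell (median 0.25), and without HD 21 it was 8 (median 0.15). The score of every HD mouse (0.14 to 0.55) was above every Ctr mouse (at most 0.07). Beside Gstm1 and Aox1, Hmox1, the haem-degrading enzyme, had 39.8, 44.8, 30.6, 49.1 and 30.4 normalized counts in Ctr mice and 67.5, 102, 83.4, 230 and 58.5 in HD mice (1.29, SE 0.29). Nfe2l2, which encodes NRF2 itself, rose by 0.51 (SE 0.16) without overlap, and Ftl1, the ferritin light chain, by 0.51 (SE 0.15). The widely used NRF2 targets Nqo1, Gclc, Gclm, Txnrd1, Srxn1 and Slc7a11 were not called. Of the metallothioneins, which bind mercury, zinc and copper through cysteines, Mt2 had 651, 761, 609, 903 and 589 normalized counts in Ctr mice and 1082, 1398, 975, 2615 and 940 in HD mice, without overlap (0.90, SE 0.22, adjusted p = 0.112). Mt1 rose by 0.55 (SE 0.19, adjusted p = 0.323) but was not called without HD 21, and Mt3, the brain form, was not called (0.27, SE 0.15).

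The promoters of Mt1 and Mt2 are shown because metallothioneins are the textbook targets of the metal-sensing factor MTF1. The RefSeq windows (GRCm38.p6, plus strand, chr8:94178839-94179118 for Mt1 and chr8:94172368-94172647 for Mt2, 250 bases before to 30 after the start) have the core letters of the metal response element, TGCACNC and TGCGCNC on either strand, in capitals.
Mt1: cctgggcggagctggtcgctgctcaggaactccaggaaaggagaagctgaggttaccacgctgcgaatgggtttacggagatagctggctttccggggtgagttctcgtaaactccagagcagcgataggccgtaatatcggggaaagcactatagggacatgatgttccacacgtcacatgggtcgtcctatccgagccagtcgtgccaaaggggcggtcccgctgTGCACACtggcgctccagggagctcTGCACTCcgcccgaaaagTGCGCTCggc
Mt2: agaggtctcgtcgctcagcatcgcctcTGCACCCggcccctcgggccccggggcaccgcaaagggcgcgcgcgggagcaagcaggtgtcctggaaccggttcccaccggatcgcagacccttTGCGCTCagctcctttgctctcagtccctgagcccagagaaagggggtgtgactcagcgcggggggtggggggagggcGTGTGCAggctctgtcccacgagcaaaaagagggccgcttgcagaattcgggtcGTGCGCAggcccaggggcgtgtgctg
Mt1 held 3 such matches and Mt2 held 4 in the window of 300 bases, whereas 25.7% of all windows held at least 1, 1.97% at least 3 and 0.517% at least 4. Of the 11 genes with a window, Lyz2 and Gstm1 held a match.

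Some antioxidant enzymes rose and some selenoproteins fell, while stress genes showed few calls. Of 16 superoxide and peroxide enzymes Prdx6, Prdx1, Sod3 and Cat rose (0.57, 0.36, 0.52 and 0.28 on the log2 scale, SE 0.15, 0.12, 0.17 and 0.09), at a list median of 0.08, and Prdx1 was at 0.21 without HD 21. Of 20 selenoproteins, whose selenocysteine binds MeHg, none rose, and Sepw1 and 2700094K13Rik (selenoprotein H) fell, at a list median of −0.03. Sepw1 had 5844, 5344, 5091, 5297 and 3858 normalized counts in Ctr mice and 3375, 2980, 4564, 2386 and 2980 in HD mice (−0.66, SE 0.17), in which HD 15 overlapped the Ctr mice. Gpx1, a glutathione peroxidase, was not called (−0.49, SE 0.25). Of 21 genes of the integrated stress and unfolded protein responses only Pdia4, a disulphide isomerase, was called (0.38, SE 0.17), and without HD 21 none was, where the list median of 0.13 was 0.0029. Of 16 apoptosis and p53 genes, Casp9, the initiator caspase, fell without overlap (−0.36, SE 0.11), and Tnfrsf1a, a receptor for tumour necrosis factor, rose (0.75, SE 0.30), the latter not called without HD 21.

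Some neuronal genes fell. Gad1, the main enzyme of GABA synthesis, had 2955, 2610, 2498, 2754 and 2923 normalized counts in Ctr mice and 1848, 2005, 1888, 2018 and 2269 in HD mice, without overlap (−0.45, SE 0.09, adjusted p = 0.0646), and HD 21 did not stand apart in it. Pvalb, parvalbumin of fast-spiking interneurons, fell by 0.59 (SE 0.23) with overlap and was not called without HD 21. Of 22 interneuron genes these were the only ones that fell, and Maf rose (0.33, SE 0.13), at a list median of −0.15 (−0.09 without HD 21). Without HD 21 Maf was not called, and Calb2, calretinin, was called higher (0.57) but was not with all 5 HD mice (0.43, SE 0.23). Of 12 GABA-A receptor subunits 3 fell, among them Gabrd (from a mean of 140 to one of 81.8 normalized counts), and 10 of the 12 had a negative log2 fold change (median −0.21). Without HD 21, 2 were called and the median was −0.16. Gabrd, an extrasynaptic subunit, had 73.9, 147, 75.3, 19.6 and 92.5 normalized counts in HD mice and 116 to 175 in Ctr mice, and its log2 fold change was −0.57 without HD 21.

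Some synaptic and axonal genes fell, beside 2.04% of all genes called lower. Vamp1, a vesicle fusion protein, had 1738, 1277, 1176, 1271 and 1241 normalized counts in Ctr mice and 987, 943, 989, 776 and 1018 in HD mice, without overlap (−0.50, SE 0.11). Syt2, a fast calcium sensor of release, had 657, 405, 303, 583 and 477 in Ctr mice and 204, 168, 371, 120 and 264 in HD mice (−1.15, SE 0.25). Kif5a, an axonal kinesin, had 16635, 14678, 14018, 16186 and 15878 in Ctr mice and 11438, 12285, 12737, 8211 and 12029 in HD mice, without overlap (−0.46, SE 0.12). With Cplx1, a regulator of release (−0.31), the lists had 3 of 22 synaptic genes called lower. With the sodium channel subunit Scn4b (−0.86) and the pacemaker channel Hcn2 (−0.25), 3 of 18 axonal and fast-spiking genes were called lower. None of either list was called higher, and Cplx1, Scn4b and Hcn2 were not called without HD 21. Of 23 excitatory neuron genes 1 was called lower and none higher. Pdyn, the precursor of dynorphin, had 71.2, 56.3, 61.3, 68.0 and 51.8 normalized counts in Ctr mice and 38.6, 35.8, 36.3, 16.3 and 39.3 in HD mice, and Chrna4, a nicotinic receptor subunit, had 163 to 254 in Ctr mice and 103, 144, 160, 57.9 and 91.6 in HD mice. Both were without overlap, and their log2 fold changes were −0.93 and −0.91, and −0.70 for each without HD 21.

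**Figure D3:**
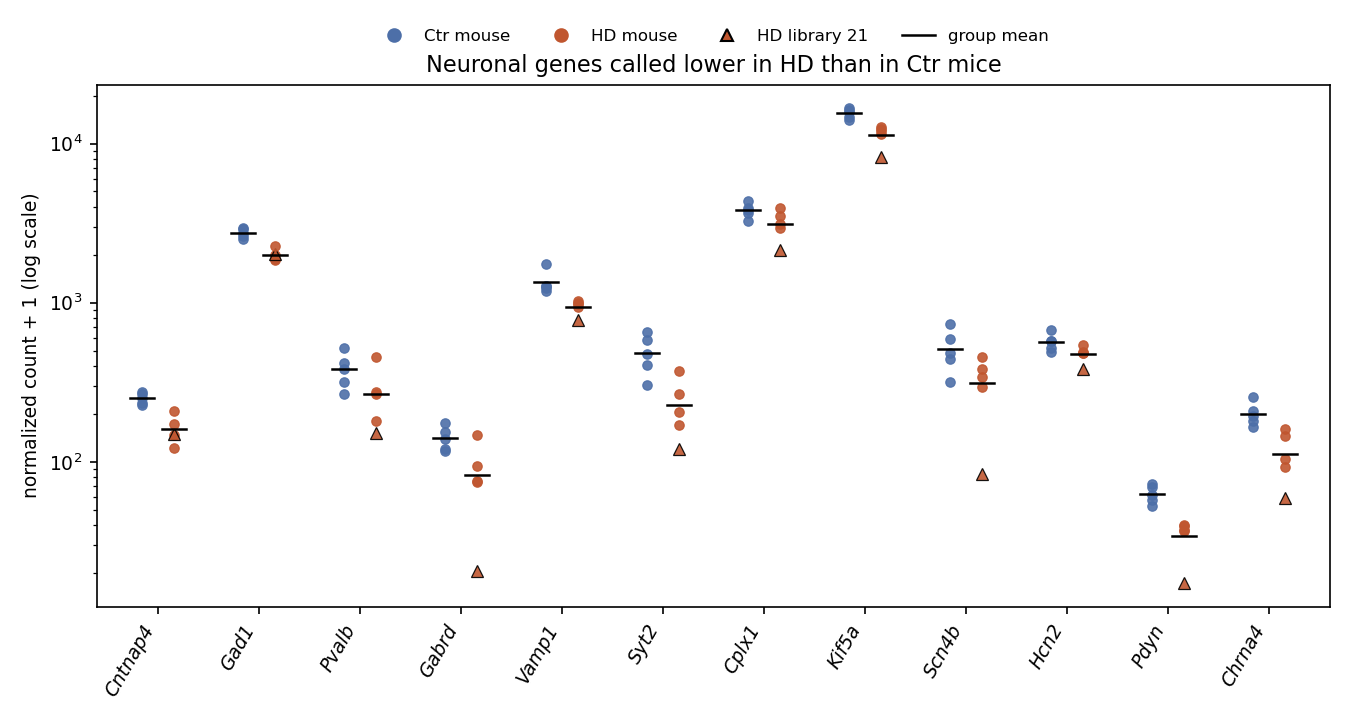
Normalized counts plus 1 (log axis) of 12 neuronal genes called lower in HD mice, 1 point per mouse with the group mean as a bar and HD 21 as a triangle. Gad1, Vamp1, Kif5a, Pdyn, Chrna4 and Cntnap4 do not overlap between the groups. HD 21 is the lowest mouse in several genes, among them Gabrd (19.6), Scn4b (83.2), Vamp1, Syt2, Kif5a, Pdyn and Chrna4, but not in Gad1 or Cntnap4.

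No gene was called among 18 immediate early genes, whose median was −0.45. Their score was −1.30 in Ctr 13, between −0.02 and 0.57 in the other Ctr mice, and between −0.78 and −0.04 in HD mice. Without HD 21, Ctr 1 and Ctr 13, 3 of these genes were called lower. Of 15 circadian clock genes Hlf (−0.78, SE 0.25, and −0.47 without HD 21) and Arntl (−0.32, SE 0.13) fell and Bhlhe41 rose (0.35, SE 0.16), the latter not without HD 21. Of 17 genes of myelinating oligodendrocytes Mal (−0.52, SE 0.15) and Tspan2 (−0.29, SE 0.10) fell, while none of 10 precursor genes, 14 endothelial genes, 17 cholesterol synthesis genes or 12 mitochondrial transcripts was called.

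Markers of other tissues and cells were measured beside these results. None of 15 choroid plexus genes was called, although their median log2 fold change was 1.44, and their summed level was 2391 to 44139 normalized counts in Ctr mice and 10041 to 45436 in HD mice. None of 5 erythrocyte genes was called (median −0.52). Of 11 genes of T cells, B cells and monocytes in the table only 2 reached the mean of 10, and neither was called. Of 4 border-associated macrophage genes tested Stab1 rose (0.69, SE 0.19), and Lyve1, Pf4 and Ms4a7 were below the mean of 10. The part of these cells in the microglial and complement results was not tested.

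The HD mice differed among themselves along the same genes. Of the 488 genes that rose, HD 21 was the highest HD mouse in 333 (68.2%), HD 9 in 69 and HD 27 in 8, whereas HD 21 was the highest in 27.7% of all genes tested. Of the 294 genes that fell, HD 21 was the lowest in 148 (50.3%, against 25.4% of all genes). The scores of activated microglia were 1.22, 1.89, 0.79, 2.40 and 0.20 and those of complement genes 0.92, 1.09, 0.34, 1.70 and 0.37, against at most 0.28 and 0.17 in Ctr mice. HD 27 was thus within the Ctr range for activated microglia and above it for complement. Without HD 21, Ctr 1 and Ctr 13, 318 of 14315 genes tested were called higher. With the list sizes given above, they included 12 of 20 genes of homeostatic microglia, 13 of 23 of activated microglia and 13 of 21 Fc receptors and sensors. They also included 9 of 16 complement genes, 6 of 22 of reactive and 6 of 18 of homeostatic astrocytes, 9 of 30 lysosomal genes and 7 of 28 NRF2 targets.

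**Figure D4:**
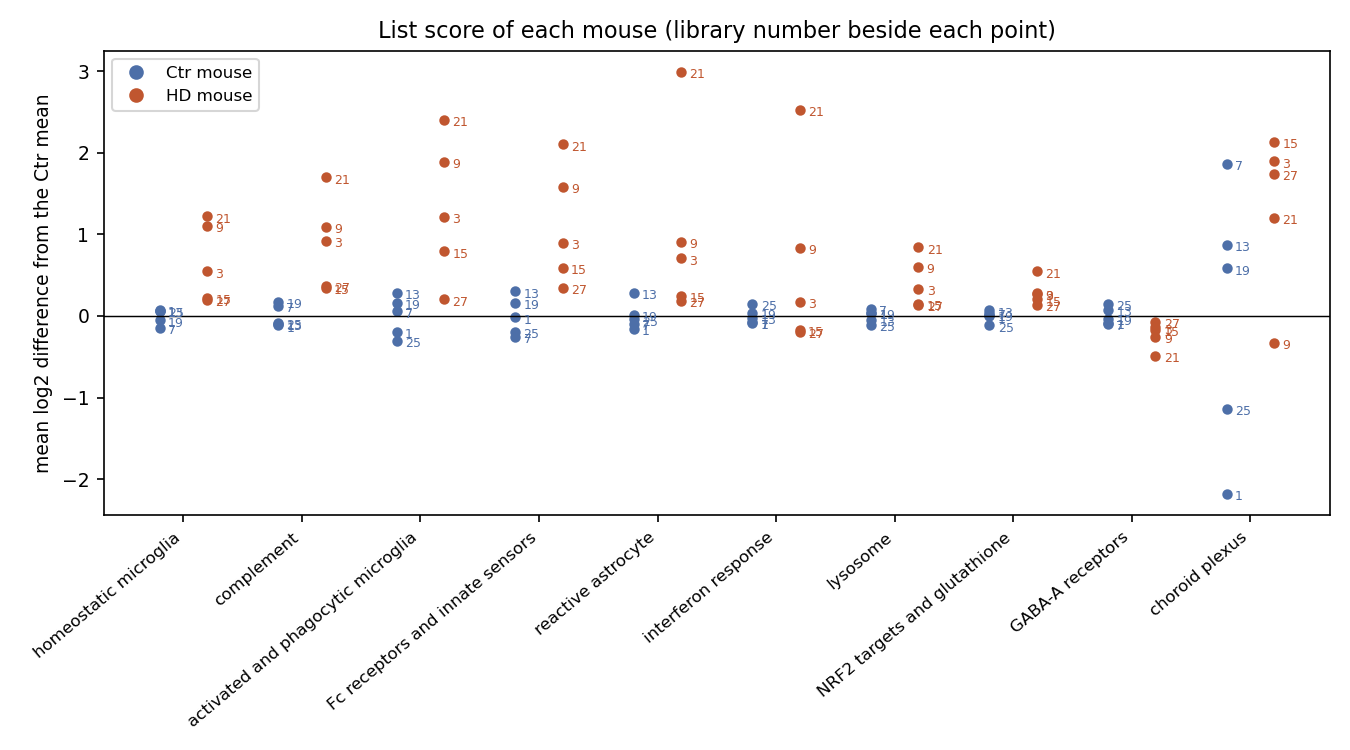
Score of 10 gene lists in each mouse (mean log2 difference from the Ctr mean), with the library number beside each point. HD 21 has the highest score in the 8 lists from homeostatic microglia to NRF2 targets, HD 15 and HD 27 have the lowest HD scores in these 8, and the choroid plexus score spreads from −2.18 to 1.86 within Ctr mice.

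The dose was set against the lower dose. Directly against LD mice, 9 genes were higher in HD mice (0.0625%) and none lower at an adjusted p under 0.05 (limma). The count was 1 without LD 8, LD 26 or HD 9, 2 without the limma trend, 5 without HD 21, 48 without HD 15 and 69 without HD 27. The 9 genes were C4b (log2 fold change 1.99), C4a (1.46), Lyz2 (2.14), Mpeg1 (1.66), Gfap (2.28), Tyrobp (1.55), Hrsp12 (0.59), Csf1r (0.84) and Tlr2 (2.16), with adjusted p-values from 0.00179 to 0.0418. Gfap had 2149, 1701, 1623, 2095 and 1884 normalized counts in LD mice, and C4b had 256, 184, 238, 160 and 187, below all HD mice in both genes. Against Ctr mice, which HD and LD share as controls, LD mice had no gene with an adjusted p under 0.05, and 285 genes with an unadjusted p under 0.05 (limma, the only tool run for it). The LD minus Ctr log2 fold change was 0.11 for Gfap, −0.30 for C4b and 0.16 for Tyrobp.

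The same dose was also given with selenium, in mice that share no library with the comparison above. In Se_HD against Se_Ctr no gene had an adjusted p under 0.05 (limma, lowest 0.117), 593 had an unadjusted p under 0.05, and the study's rule called 182 higher (1.26%) and 100 lower (0.694%). Of the genes called higher in HD against Ctr, 37 were also called higher with selenium (7.58% of the 488 and 20.3% of the 182), and of those called lower 13 were also called lower (4.42% of the 294 and 13.0% of the 100). None was called in the opposite direction. The sign was positive with selenium in 75.6% of the 488 genes (47.9% of all genes) and negative in 80.3% of the 294 (52.1% of all genes), at median log2 fold changes of 0.13 and −0.08. Gfap rose from a mean of 1792 normalized counts in Se_Ctr to 2542 in Se_HD mice (0.51) and C4b from 215 to 381 (0.84). The median with selenium was 0.02 for homeostatic microglia, 0.16 for activated microglia, 0.19 for complement and 0.13 for reactive astrocytes. The difference between the effects, tested as an interaction over all 30 libraries and so sharing the HD and Ctr mice with the first comparison, had no adjusted p under 0.05 (limma, lowest 0.211), and 651 genes had an unadjusted p under 0.05 (4.52%). The lowest unadjusted p-values belonged to Tyrobp (1.71 without and 0.10 with selenium), Clec5a (1.89 and −0.15), Cd84 (2.59 and 0.26), Mpeg1 (1.75 and 0.42) and C1qb (1.71 and 0.06).

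**Figure D5:**
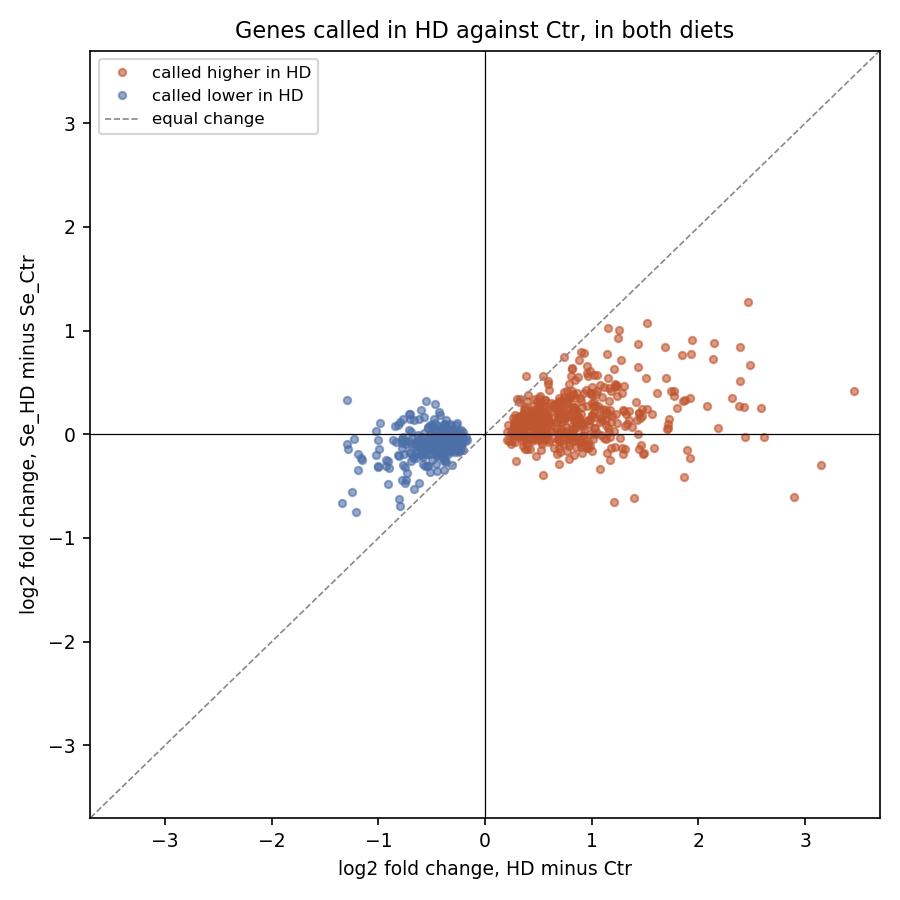
Log2 fold change of HD minus Ctr (x) and of Se_HD minus Se_Ctr (y) for the 782 genes called in HD against Ctr, which were chosen on the x axis, with equal change as a dashed line. Most points lie on the side of their own sign on y and nearer to 0 than on x, with medians of 0.13 and −0.08 on y.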

How the data were processed

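Hippocampus RNA was sequenced by the authors as stranded single-end libraries of 75 bases (5 mice in each of 6 groups). Reads were trimmed with Trim Galore 0.4.2, aligned with HISAT2 to NCBIM37 and counted with featureCounts, whose strand setting is not given in the sources used here. The deposited values are signal values, read counts that the authors divided by DESeq2 size factors after removing genes with fewer than 10 reads in all. Whole reads were recovered for 100% of the values (tolerance 0.01 of a read), and no per-sample column was left unused (0). Symbols were found for 21326 of 21412 identifiers.

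Groups were taken from the labels. The log2 of each value plus a pseudocount of 1 was fitted with limma 3.58.1 (R 4.3.3, trend) over Ctr, LD and HD, for genes with a mean of at least 10 over Ctr and HD, and contrasts were adjusted by Benjamini-Hochberg over all genes tested. Se_Ctr, Se_LD and Se_HD were fitted apart, and the interaction over 30 libraries. A fold change on this scale understates that of low genes. On the recovered reads, edgeR 4.0.16 called 29 genes and DESeq2 1.42.0 called 196 genes at an adjusted p under 0.05. The 35 gene lists, 2 more that were added after their values were seen, and the members were chosen with earlier results of these data known, and no list was tested as a set.

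Genes were named by a rule: the 10 lowest p-values, the 10 largest rises and 10 largest falls among called genes whose groups did not overlap, up to 5 members of each list by p, and the lowest p-values against LD and in the interaction. The text names a part of these, some members are not reported here, and other list members were named after their values were seen. The labels number libraries rather than pairs, and nothing says whether mice shared a litter or cage. The p-values of HD against Ctr measure the spread between mice pooled over the 15 Ctr, LD and HD libraries, moderated by limma. On the log2 scale HD mice spread more than Ctr mice in 74.2% of the genes that rose and 57.2% of all genes. Intervals and standard errors of low genes include counting error, which the depths above set. Alternatives were other pseudocounts, filters, normalizations, covariates, samples in the fit and tools, and leaving out each mouse. Leaving out HD 21, Ctr 1 and Ctr 13 together was chosen after seeing the data. The methods were tested on simulated data for the limma fit of HD against Ctr only. Tables and figures were made with pandas 2.3.3, numpy 2.4.6 and matplotlib 3.10.9 in Python 3.11.15. Promoters came from a RefSeq table.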

Additional observations from a re-analysis of the deposited data

Results flagged for a closer look

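In each group of 5 mice the gap between the highest or lowest mouse and the nearest other one was divided by the range of the group, and 36 of 310 groups were above 0.71, Dixon's 95% critical value for 5. Chance gives about 1 in 20 groups, here 15.5, where values are normally distributed and genes are not chosen by them. Counts were not put on a log scale, many genes were named for their difference, and the genes are not independent of each other. The 36 groups therefore cannot be tested against this number. No cause of these gaps was tested.

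HD 21 stood above the other HD mice in Vim (0.926 of the range), Spp1 (0.925), Serpina3n (0.905), S100a10 (0.882), Ifitm3 (0.865), Prdx1 (0.848), Mki67 (0.817), Aqp4 (0.809), Cxcl10 (0.773), Tlr6 (0.772), Tnfrsf1a (0.746), Hmox1 (0.744), the score of reactive astrocytes (0.741) and Mt2 (0.727). It stood below them in Pdyn (0.850), Camk2a (0.801) and Kif5a (0.713). Among the other HD mice, HD 9 was apart as the highest in Gh (0.925), Pomc (0.733) and the pituitary score (0.766), HD 15 as the highest in Neat1 (0.764) and the lowest in reads on genes (0.821).

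Ctr 1 was apart as the highest Ctr mouse in Gh (0.998), Prl (0.997), Pomc (0.996), Vamp1 (0.819), the pituitary score (0.781) and Sparc (0.714), and as the lowest in Lamp2 (0.742) and the excitatory neuron score (0.717). Ctr 13 was the highest in the score of structural and small nuclear RNA (0.764), Ftl1 (0.722) and Lcp1 (0.718), and the lowest in C1qc (0.720) and Mal (0.720). Ctr 25 was the lowest in the score of T cells, B cells and monocytes (0.940), which rested on 2 genes.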

How the results depend on the processing

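The number of genes with an adjusted p under 0.05 depended on the fit. For HD against Ctr it was 17, and it was 26 with all genes of at least 10 reads in sum, 206 with all 30 libraries in the fit, 29 with edgeR, 196 with DESeq2, 7 without HD 21, Ctr 1 and Ctr 13, and 0 with limma without trend (1241 at an unadjusted p under 0.05) or with Ctr and HD alone (1164). Leaving out 1 mouse gave 0 to 77, with 0 without Ctr 25 or HD 9, 11 without HD 21, 53 without HD 15 and 77 without HD 27. By the study's rule the 782 genes became 1190 with all 30 libraries, 1254 by the contrast alone, 506 without those 3 libraries and 533 (without HD 21) to 934 (without HD 27) without 1 mouse. The 277 genes without overlap became 369 to 551 without 1 mouse and 1044 without the 3 libraries, since fewer mice overlap less. HD against LD (9) gave 5 with a covariate for sets of 6 libraries, 2 without trend and 1 to 69 without 1 mouse (69 without HD 27). With selenium (0) it was 1 with that covariate and 0 to 2 without 1 mouse, and the study's rule (282) gave 210 to 430. The interaction had no adjusted p under 0.05 under any alternative run, and its 651 unadjusted ones became 1021 with the sum filter.

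Of 2298 values, under the alternatives, of the 96 called genes named in the text, 2193 stayed called in the same direction, 105 were no longer called and none changed sign. Of 381 values of named genes that were not called, 27 became called in the same direction, at most 4 under 1 alternative (edgeR, DESeq2 and without HD 15). Of these 96 genes, 75 were called in all 10 fits without 1 mouse and 4 in fewer than 5 (Tapbp, S100a10, P2ry12 and Vim). Gclm (0.02) was −0.065 without the 3 libraries and −0.014 to 0.063 without 1 mouse, below 0 without Ctr 1 or HD 21. Txnrd1 (0.01) was −0.076 and −0.107 to 0.101, below 0 without Ctr 13, Ctr 19 or HD 21. Of 886 list medians 6 moved by more than 1 SD of the scores of the HD mice, a measure that is wide where HD 21 stands apart, so that the shifts without HD 21 given above for the interferon, reactive astrocyte and cytokine lists are within it. The 6 were immediate early genes to −0.80 without Ctr 13, structural RNA to 0.43 without the 3 libraries, −2.0 (edgeR) and −1.99 (DESeq2), and pituitary hormones to −7.08 and −7.20. The cause was not tested. The labels give no replicate number that mice of different groups share, so mice were not paired by label. With the sets of 6 consecutive library numbers, each with 1 mouse of every group, as a block, 17 genes passed for HD against Ctr.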

Other observations

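The following called genes belong to none of the gene lists and were chosen after their values were seen, from those with low contrast p-values. Sparc, a matrix protein of glia and endothelium, rose by 0.73 on the log2 scale (SE 0.14) with HD 27 inside the Ctr range, and Tmem176a, a membrane protein of phagocytes, by 1.08 (SE 0.21) without overlap. Agt, angiotensinogen, which in brain is made by astrocytes, had 165, 93.3, 128, 80.3 and 84.5 normalized counts in Ctr mice and 253, 299, 188, 174 and 189 in HD mice, without overlap (1.02, SE 0.21, limma adjusted p = 0.0646). HD 21 was the lowest HD mouse for Agt. Neat1, a nuclear long non-coding RNA, had 3502, 4896, 5120, 4616 and 2473 in Ctr mice and 7894, 6086, 13746, 7129 and 7793 in HD mice (1.04, SE 0.23), where HD 15 was the highest. Csf3r, the receptor for granulocyte colony-stimulating factor, had 73.7, 47.3, 51.0, 46.3 and 65.4 in Ctr mice and 122, 159, 90.1, 198 and 85.5 in HD mice (1.14, SE 0.24). Lcp1, an actin bundler of leukocytes and microglia, rose by 1.10 (SE 0.24), and Slc14a1, a urea transporter of astrocytes, by 1.02 (SE 0.23), both without overlap.

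Among the genes that fell, Astn2, a neuronal membrane protein of migration and synapse turnover, had 397, 335, 294, 332 and 304 normalized counts in Ctr mice and 212, 248, 246, 211 and 226 in HD mice (−0.53, SE 0.11, limma adjusted p = 0.080). Cbln2, a synapse organiser that binds neurexins, had 159, 104, 109, 133 and 119 in Ctr mice and 78.8, 70.8, 84.7, 64.5 and 68.0 in HD mice (−0.75, SE 0.17). Kcnk2, a background potassium channel, fell by 0.47 (SE 0.11). In these 3 genes the groups did not overlap and HD 21 was the lowest mouse. Tpmt, a thiol methyltransferase, had 33.8, 49.9, 52.7, 51.0 and 41.7 in Ctr mice and 15.3, 28.3, 17.5, 32.6 and 30.5 in HD mice (−0.90, SE 0.22). The groups did not overlap, and HD 21 was the highest HD mouse. All 11 genes named here were called in each of the 10 fits that left out 1 mouse.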
